A study of Homo sapiens with 4 samples.

Results

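The genes described here are 38 protein-coding genes that have been reported to hold a minor, U12-type intron. They were taken by symbol from a named list, and all 38 occur once each among the 18276 genes of the count table. The whole table holds 13439 further protein-coding genes, which served as the comparison. Libraries came from MDA-MB-231, a human triple-negative breast cancer cell line. In 2 libraries, RNA was recovered with 5 ug of an antibody against SF3B6 (SF3B6 IP 1 and 2), and 2 input libraries hold RNA of the same kind of lysate without that step (Input 1 and 2). All 4 came from cells irradiated once at 400 mJ/cm2 and lysates digested with micrococcal nuclease, with no genetic change named in the labels. The IgG antibody named in the protocols was not used here, so these data hold no measure of recovery by an unrelated antibody.

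Most human introns are removed by the major spliceosome, in which U1 RNA pairs with the start of the intron and U2 RNA with the branch point. A small class of introns, the U12-type, carries other and more strictly conserved start and branch point sequences and is removed by the minor spliceosome, in which U11 and U12 RNAs take these places and U4atac and U6atac replace U4 and U6. The SF3b complex, of which SF3B6 is a small subunit in contact with the branch point, belongs to the U2 particle and to the U11/U12 particle alike. Genes with a U12-type intron usually hold just 1 such intron among many of the major type, and kinases of the MAP kinase cascades, E2F factors and genes of RNA handling are well known among them. The counts used here are per gene. They do not say whether a read lay in or near the U12-type intron, and the intron itself was not looked up in a genome, so its presence rests on the list.

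The gene counts of SF3B6 IP 1 and 2 summed to 55492 and 30431, those of Input 1 and 2 to 317190 and 519836. Since each IP library was less deep than each input, effects of depth and of IP cannot be told apart. Of 6 markers of the cell line, AXL, VIM, CD44 and CAV1 had 2408, 818, 146 and 132 input counts, while ZEB1 had 16 and SPARC 2. Of markers absent or low in triple-negative cells, CDH1 had 4, GATA3 19 and ERBB2 223. Of blood cell markers, HBA1 and HBA2 had 1 IP count each and no input count. IP libraries differed from each other by more than counting noise across all genes (chi-square over degrees of freedom 2.58 in 1451 genes with at least 10 IP counts). Over the 14 listed genes with at least 5 IP counts this value was 1.16.

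The 38 genes as a whole were recovered about as the rest of the transcriptome was. They held 135 and 57 counts in SF3B6 IP 1 and 2 and 695 and 1293 in Input 1 and 2. As a share of all gene counts this was 0.243% (95% Wilson interval 0.206 to 0.288) and 0.187% (0.145 to 0.243) in IP. In the inputs it was 0.219% (0.203 to 0.236) and 0.249% (0.236 to 0.263). The IP and input shares overlapped, the lowest and the next to highest being those of IP. Pooled over libraries, the IP share was 0.941 times the input share, with an exact interval for counting error from 0.807 to 1.09. The other protein-coding genes stood at 0.825 (0.818 to 0.833) on the same scale. As a share of protein-coding counts alone, the listed genes made up 0.344% and 0.313% in IP and 0.281% and 0.300% in input. On that scale the pooled IP share was 1.14 times the input share, and with the library totals implied by the FPKM table it was 0.358 times. IP and input have no common absolute scale, so each of these ratios is relative to the total chosen.

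Set beside protein-coding genes of like input count, the listed genes were above the others in 4 of 6 classes and below in 2. In the 6 classes of input count their summed IP over input ratio ran from 0.624 to 1.24, and that of the other genes from 0.772 to 1.13. Among genes with 200 or more input counts the ratio was 0.80 over 3 listed genes and 0.772 over 606 others. Among those with 50 to 99 it was 0.856 over 7 and 0.858 over 1494. Listed genes were above the others in the classes of 20 to 49 counts (1.11 against 0.828, 10 genes) and of 100 to under 200 counts (1.15 against 0.837, 3 genes), and below in the class of 10 to 19 (0.624 against 0.889, 5 genes). The 95% interval of the listed genes, for counting error alone, held the value of the others in 5 of the 6 classes. The exception was that of 100 to under 200 counts (MAPK12, E2F1 and SLC12A4), where it began at 0.839, just above the 0.837 of the others. These 3 genes had 13, 14 and 10 counts in SF3B6 IP 1 and 1, 3 and 8 in SF3B6 IP 2. The ratio of this class thus leaned on SF3B6 IP 1. At the rates of the other genes the 38 would have had 169 IP counts, and they had 192, a ratio of 1.13 with an interval for counting error from 0.979 to 1.31. Taken alone, SF3B6 IP 1 gave 1.17 and SF3B6 IP 2 gave 1.07.

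**Figure D1:**
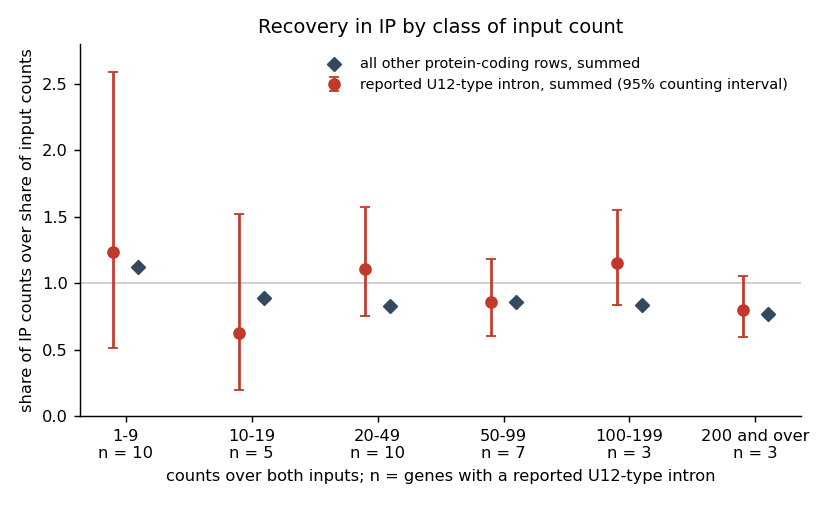
Share of IP counts over share of input counts, by class of counts over both inputs. Circles are the summed listed genes with their 95% counting intervals, diamonds all other protein-coding genes, and n is the number of listed genes in a class. The listed genes run from 0.624 to 1.24 and the others from 0.772 to 1.13.

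In the fit across all genes, 15 of the 38 passed the filter on low counts (39.5%, against 25.8% of the other protein-coding genes). None of the 15 was called higher or lower. edgeR's quasi-likelihood test at an adjusted p of 0.05 called 4.06% of all 3668 tested genes, 99 higher (2.7%) and 50 lower (1.36%). Under TMM 66.4% of the calls were of higher genes. That share was 40% when scaled to library totals, 49.3% under upper quartile scaling and 16.2% when TMM factors came from the unfiltered table. The smallest adjusted p among the 15 was 0.302, and 1 of them, STK11, had an unadjusted p under 0.05, which 15.6% of all tested genes had. DESeq2 gave no adjusted p to 9 of the 15 and called none of the other 6. It gave none of the 15 an unadjusted p under 0.05, which 275 of all 3668 genes had. Log2 fold changes, IP minus input, ran from -0.81 to 0.77 with a median of 0.18. The median of all tested genes was -0.06, and the middle 50% of them lay between -0.53 and 0.41. Of the 3468 other protein-coding genes tested, 56 were called higher and 50 lower, and their median was -0.08. Of the 15, 8 were above 0 and 7 below. Among them ARAF, DERL1, HPS1 and LZTR1 passed the filter only with the help of an IP library. The split and the median are therefore in part set by IP counts. With a filter on inputs alone, at least 10 counts in both, 17 listed genes were tested. Their median was 0.22, against -0.13 for all genes tested there. The standard errors of the 15, 0.30 to 0.87, were larger than the change itself in 10 of the 15. The lower IP library exceeded the higher input for 2 of the 15, as it did for 20.9% of all tested genes, and the reverse held for another 2, as for 28.5%.

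**Figure D2:**
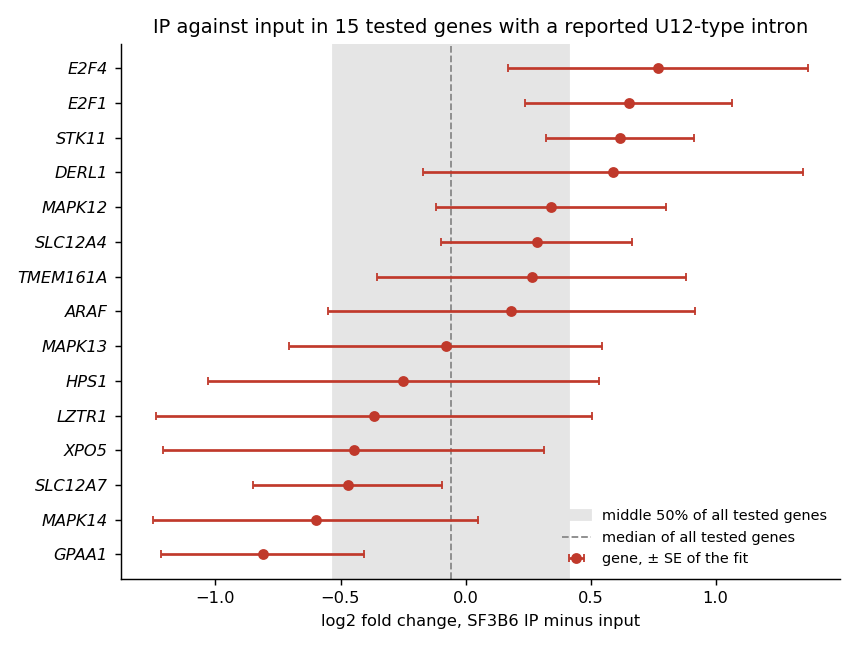
Log2 fold change, IP minus input, of the 15 tested genes with the SE of the edgeR fit. The band is the middle 50% of all tested genes, from -0.53 to 0.41, and the dashed line their median, -0.06. Values run from -0.81 for GPAA1 to 0.77 for E2F4.

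The direction of these values depends on the scale. With library totals implied by the FPKM table the median of all tested genes was -1.65, and all 15 listed genes were below 0, of which 7 were called lower, against 57.2% of all tested genes. Relative to the median of all tested genes, the median of the 15 was 0.24 with TMM normalization and 0.27 with those totals, and 8 were above it and 7 below with both. On the log2(FPKM + 1) scale 9 of the 15 were called lower by limma, against 69.5% of all tested genes. The fit without SF3B6 IP 1 tested 23 listed genes, whose median was -0.48, against -0.34 for all genes tested there. Without SF3B6 IP 2 it was 0.084 over 24 listed genes, against -0.157. Without Input 1 and without Input 2, with 6 listed genes each, it was 0.37 and 0.27, against 0.038 and 0.048.

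None of the kinases passed the test, to which 5 of 10 came. Their summed IP share was 1.08 times the input share (0.834 to 1.38). STK11 encodes LKB1, the tumour suppressor kinase that activates AMPK (chromosome 19, 1205778 to 1228431 in GRCh38.p14). It gave the most IP counts of the 38, with 19 and 10 beside 76 and 138 input counts. Its normalised level (CPM, counts scaled to library size, after TMM) was 418 and 436 in IP against 267 and 281 in input. Both IP libraries were above both inputs, as they were for 20.9% of all tested genes. With 19 and 10 IP counts, the closeness of the 2 IP levels is no measure of replicate spread. The means were 427 ± 12.3 CPM and 274 ± 9.83 CPM (SD, n = 2 each), a log2 fold change of 0.62 ± 0.30 SE that did not pass in the edgeR fit (adjusted p = 0.302, unadjusted 0.0440). Among 346 other protein-coding genes with 172 to 267 input counts, the median IP count was 16 and the middle 50% ran from 12 to 20. The 29 IP counts of STK11 were above those of 91.9% of these genes. STK11 overlaps the gene CBARP in the annotation.

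Of the p38 stress kinases, 3 were tested, and none had both IP libraries above both inputs. MAPK12, which encodes p38 gamma (chromosome 22, 50252901 to 50261683), had 13 and 1 IP reads beside 41 and 84 input reads. Its IP libraries, at 286 and 43.6 CPM, enclosed the inputs at 144 and 171, so its log2 fold change of 0.34 ± 0.46 SE rested on SF3B6 IP 1 and was -2.09 without it. MAPK13, p38 delta (chromosome 6, 36130513 to 36144521), stood at 110 and 87.1 CPM in IP, within the inputs at 70.4 and 130. MAPK14, p38 alpha (chromosome 6, 36027808 to 36124214), had 4 and 1 IP reads beside 36 and 50 input reads. At 88.1 and 43.6 CPM both IP libraries lay below the inputs at 127 and 102, with a log2 fold change of -0.60 ± 0.65 SE (edgeR adjusted p = 0.739) that was -1.56 without SF3B6 IP 1. Its 5 IP counts compare with a median of 7 in genes of like input count. MAPK11, p38 beta, had 0 and 1 IP counts against 4 and 9, too few to test.

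ARAF and BRAF encode RAF kinases, which relay signals from RAS to MEK. ARAF (chromosome X, 47561205 to 47571908) had 3 and 2 IP reads beside 12 and 38 input reads, and its levels of 66.1 and 87.1 CPM in IP overlapped input values of 42.2 and 77.5. The fitted log2 change was 0.18 ± 0.73 SE, and -0.057 without SF3B6 IP 2. BRAF had 3 and 1 IP counts against 12 and 13. MAPK3, the ERK1 kinase downstream of RAF, had 1 in each IP library against 3 and 19. Of the JNK kinases, MAPK9 had 5 and 0 IP counts against 7 and 19, and MAPK8 none against 2 and 3. BRAF, MAPK3, MAPK8 and MAPK9 did not pass the filter on low counts.

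E2F factors drive or restrain genes of the cell cycle, E2F1, E2F2 and E2F3 mostly as activators and E2F4, E2F5 and E2F6 mostly as repressors. E2F1 (chromosome 20, 33675477 to 33686385) had 14 and 3 IP reads beside 50 and 72 input reads. Its levels were 308 and 131 CPM in IP and 176 and 147 in input, so one IP library lay above and the other below both inputs. The log2 fold change was 0.65 ± 0.42 SE (edgeR adjusted p = 0.469), and -0.49 without SF3B6 IP 1. E2F4 (chromosome 16, 67192155 to 67198918) had 5 and 3 IP reads beside 20 and 33 input reads. Its IP levels of 110 and 131 CPM were both above the inputs at 70.4 and 67.3, and its log2 fold change of 0.77 ± 0.60 SE was the highest of the 15 (adjusted p = 0.580). The 17 IP counts of E2F1 were above those of 88.4% of genes of like input count, and the 8 of E2F4 above 86.6%. The other 4 had at most 1 IP count, E2F3 with 1 against 19 in input, E2F5 with 1 against 8, and E2F2 and E2F6 with none against 15 and 9. The 6 E2F genes summed gave 27 IP and 226 input counts, a ratio of 1.16 (0.750 to 1.74).

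Genes of RNA splicing, processing, decay and export had few counts, with 25 in IP and 204 in input over 11 genes. SF3B6 IP 1 held 22 of the 25, and the ratio to the pooled inputs was 1.63 in that library and 0.404 in SF3B6 IP 2. Just 1 of the 11 was tested. XPO5, the export receptor of microRNA precursors (chromosome 6, 43522334 to 43576038), had 4 and 0 IP reads beside 24 and 38 input reads, with a log2 fold change of -0.45 ± 0.76 SE and of 0.043 without SF3B6 IP 2. XPO4, a further export receptor, had 1 in each IP library against 2 and 3. The exosome, which degrades and trims RNA from its 3′ end, was represented by EXOSC2 with 4 and 0 IP counts against 4 and 18, EXOSC1 with 1 and 0 against 3 and 2, and EXOSC5 with none against 2 and 6. INTS10, of the Integrator complex that cleaves nascent snRNA, had 4 and 0 against 9 and 11. NOP2, a methyltransferase of ribosomal RNA, had 2 and 1 against 7 and 34, and CTNNBL1, a partner of the splicing machinery, 2 and 1 against 9 and 10. NCBP2, the small subunit of the nuclear cap-binding complex, and THOC2, of the THO complex of mRNA export, had no IP count against 12 and 9 in input. SNRPE, the Sm protein E of the spliceosomal particles, was the one gene of the 38 with more IP than input counts, 4 and 0 against 0 and 1. The ratio of its pooled counts was 39.0 with an interval from 3.86 to 1919, all of it from SF3B6 IP 1, and it was singled out after its counts had been seen.

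Genes of membranes, trafficking, transport and the cytoskeleton had the lowest summed ratio of the 4 groups, 0.730 (0.562 to 0.934), with 68 IP and 908 input counts over 11 genes. The interval holds the 0.825 of all other protein-coding genes and the 0.772 of those with 200 or more input counts. The order of the groups is of pooled counts and SF3B6 IP 1. In SF3B6 IP 2 the ratio to the pooled inputs was 0.848 here, 0.852 for the E2F genes, 0.804 for the kinases and 0.404 for the RNA genes. Tested were 7, of which none passed. GPAA1, a subunit of the transamidase that attaches GPI anchors (chromosome 8, 144082634 to 144086216), had 6 and 5 IP reads beside 84 and 135 input reads. Its levels of 132 and 218 CPM in IP lay below both inputs at 296 and 275. The means were 175 ± 60.6 and 285 ± 14.4 CPM (SD, n = 2 each), a log2 fold change of -0.81 ± 0.41 SE that did not pass (edgeR adjusted p = 0.324). The 11 IP counts of GPAA1 were fewer than in 78.7% of 342 genes with 176 to 273 input counts, whose median was 16. With TMM factors computed before the filter, an alternative added later that put the median of all tested genes at -0.53, GPAA1 was the 1 listed gene called lower (adjusted p = 0.0488), as were 6.65% of all tested genes.

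The potassium-chloride cotransporters SLC12A7 (KCC4) and SLC12A4 (KCC1) differed in sign within their errors. SLC12A7 (chromosome 5, 1050384 to 1155899) had 9 and 6 IP reads beside 73 and 164 input reads, and levels of 198 and 261 CPM against 257 and 334. Its groups overlapped by a few CPM, and its log2 fold change was -0.47 ± 0.38 SE (edgeR adjusted p = 0.591). SLC12A4 (chromosome 16, 67943474 to 67968694) had 10 and 8 IP reads beside 72 and 95 input reads, with 220 and 349 CPM against 253 and 194, and a log2 fold change of 0.28 ± 0.38 SE that was -0.068 without SF3B6 IP 2. The gene LCAT overlaps SLC12A4.

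The remaining genes of this group had at most 7 IP counts. TMEM161A, a membrane protein gene (chromosome 19, 19119169 to 19138478), had 3 and 4 IP reads beside 24 and 42 input reads, and a log2 fold change of 0.26 ± 0.62 SE that was -0.46 without SF3B6 IP 2. HPS1, a gene of lysosome-related organelles that is mutated in Hermansky-Pudlak syndrome (chromosome 10, 98413948 to 98446935), had 1 and 3 against 16 and 38. Its log2 fold change was -0.25 ± 0.78 SE, and 0.69 without SF3B6 IP 1. LZTR1, an adaptor for the degradation of RAS proteins (chromosome 22, 20982297 to 20999032), had 3 and 0 against 14 and 30, with -0.37 ± 0.87 SE and 0.12 without SF3B6 IP 2. DERL1, a factor of ER-associated degradation (chromosome 8, 123013170 to 123042302), had 3 and 2 against 19 and 18, with 0.59 ± 0.76 SE. None of these 4 had IP libraries clear of both inputs. VPS16, a core subunit of vesicle tethering complexes, had 5 and 0 IP counts against 6 and 24 and was not tested.

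**Figure D3:**
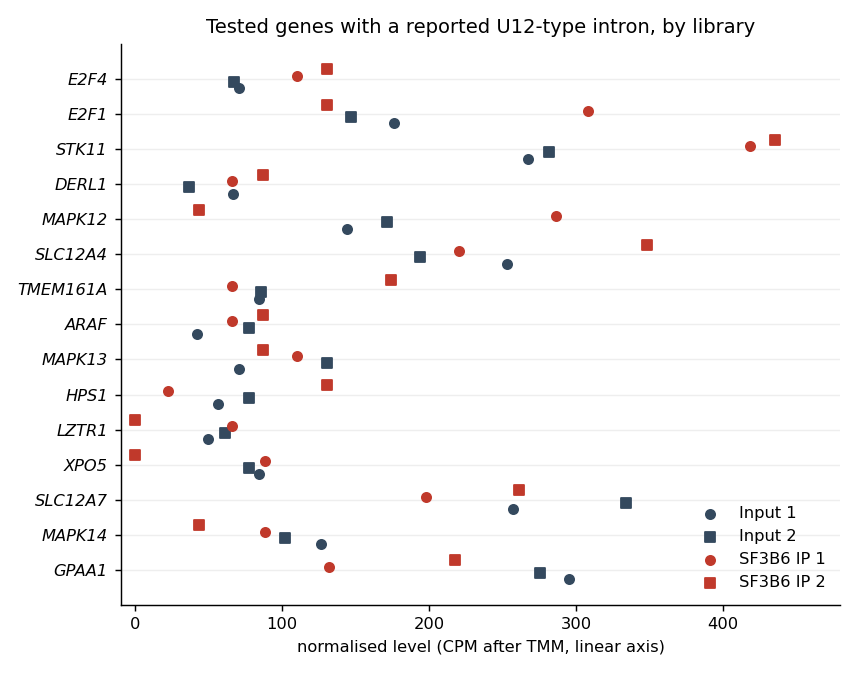
Normalised level (CPM after TMM) of the 15 tested genes in each library, dark for input and red for IP, circles for replicate 1 and squares for replicate 2. IP lies above both inputs for STK11 and E2F4, below both for MAPK14 and GPAA1, and overlaps the inputs in the other 11. Levels are not corrected for length and compare libraries within a gene.

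Of the 38 genes, 9 had no count in either IP library, which is 23.7%, beside 33.9% of the other protein-coding genes. DIAPH3, a formin that nucleates actin filaments (chromosome 13, 59665583 to 60163928), was the one of the 9 with more than 20 input counts, 12 and 29. The exact interval for its IP share over its input share reached up to 0.917. That range holds the summed 0.828 of the other genes with 20 to 49 input counts. Among 1315 other protein-coding genes with 33 to 51 input counts, 5.48% had no IP count, and the median was 3. DIAPH3 did not pass the filter and was not tested. The others, E2F2, E2F6, MAPK8, NCBP2, THOC2, EXOSC5, DERL2, an ER-associated degradation factor, and TRAPPC2, a vesicle tethering subunit, had 4 to 15 input counts, so a share of 0 was within the limit of detection. In the class of 1 to 9 input counts 60% of listed genes and 68.6% of the others had no IP count, and in that of 10 to 19 it was 40% and 31.8%. In the class of 20 to 49, which holds DIAPH3, it was 10% and 10.8%.

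The IP counts of a further 9 genes came from SF3B6 IP 1 alone, of 2 from SF3B6 IP 2 alone, and 18 had counts in both. Of the 13439 other protein-coding genes, these patterns held for 3275, 1061 and 4546. None of the 23 untested genes had more than 5 IP counts. Together these 23 held 40 IP and 368 input counts, a ratio of 1.06 (0.744 to 1.47). They gave 33 of their IP counts to SF3B6 IP 1 and 7 to SF3B6 IP 2, ratios of 1.35 and 0.523 to the pooled inputs. These ratios are already scaled to the gene counts of each library, 55492 in SF3B6 IP 1 and 30431 in SF3B6 IP 2. The one for SF3B6 IP 2 rests on 7 counts, and the cause of their difference was not tested.

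**Figure D4:**
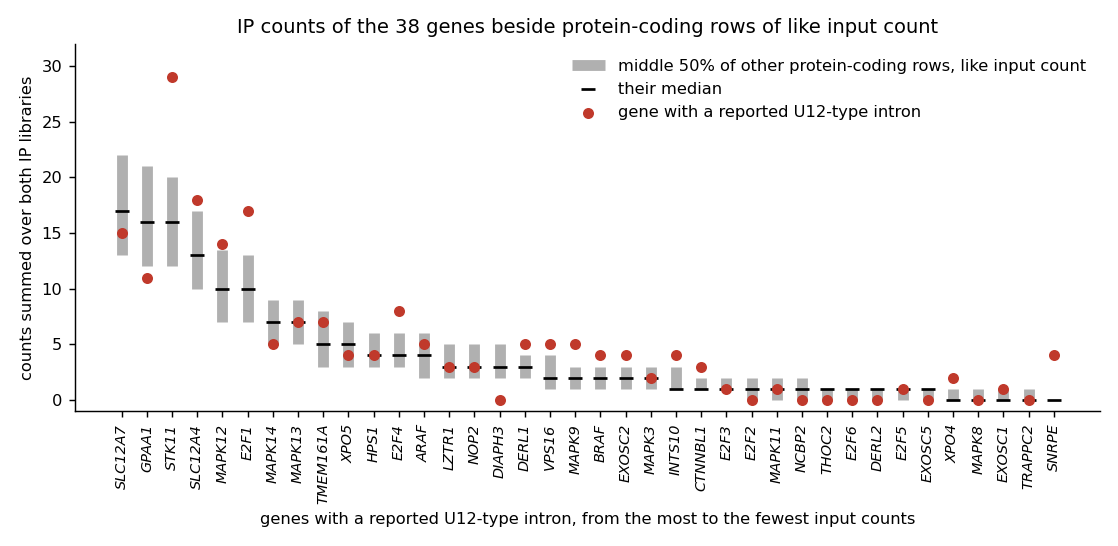
Counts over both IP libraries of each of the 38 genes (red), ordered by input count, beside the middle 50% (grey) and the median (black) of other protein-coding genes of like input count. STK11, with 29, lies above the grey range of 12 to 20, GPAA1, with 11, below that of 12 to 21, and DIAPH3, at 0, below that of 2 to 5.

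Per length, the listed genes were above the middle of the protein-coding genes in input. The median FPKM (fragments scaled for length and library size, as deposited) over the 38 was 1.11, with the middle 50% from 0.489 to 2.61, against 0.575 (0.175 to 1.77) for the others. GPAA1 had the highest level in input, 12.1 and 16.2 FPKM, followed by E2F1 with 8.76 and 10.5, SLC12A7 with 5.73 and 10.7, and STK11 with 4.07 and 6.15. The ranges of E2F1 and SLC12A7 overlapped, as did those of SLC12A7 and STK11. In IP the order began with E2F1, at 6.87 and 2.23 FPKM, and GPAA1 stood at 2.42 and 3.05, STK11 at 2.85 and 2.26. These 3 overlapped in IP. The genes lie on 17 chromosomes, and their annotated spans run from 3583 bases (GPAA1) to 498346 bases (DIAPH3). Over the 15 tested genes the Spearman correlation of the log2 fold change with span was -0.35, with input counts -0.19 and with input FPKM 0.12. These are descriptions over genes of the same 4 libraries. Another RefSeq gene overlaps 22 of the 38, a protein-coding one 11, and reads of such pairs cannot be assigned without knowing the strand setting.

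The machinery for these introns was measured best through its RNAs. RNU12, the U12 RNA, gave 44 and 17 counts in IP, 15 and 18 in input, and passed the test (log2 fold change 4.36 ± 0.33 SE, edgeR adjusted p = 4.48e-12), while RNU11, the U11 RNA, had 15 and 4 against 30 and 22 (2.04 ± 0.52, 0.0170). Without SF3B6 IP 2 RNU11 was at 2.19 and still passed (0.000788). Its call was lost on leaving out SF3B6 IP 1 (1.15, adjusted p = 0.639), without Input 1 (2.57, 0.546), without Input 2 (1.36, 0.648), with DESeq2 (1.85, 0.231) or with the FPKM totals (0.37, 0.577). RNU4ATAC and RNU6ATAC were at 0.72 and 0.53 and did not pass (0.332 and 0.798). Higher calls were not confined to these RNAs. Of the 99 over all 3668 tested genes, 56 were among the 3468 other protein-coding genes. The rest of the 99 were genes that are not protein-coding, the class to which these 4 RNAs belong. Messengers of the minor spliceosome's own proteins were sparse, with 15 IP and 144 input counts over 12 listed genes. Among them CENATAC, a subunit of the minor tri-snRNP, was tested, at 0.71 ± 0.69 SE (0.678), and ARMC7 had 3 IP and 27 input counts. Messengers of 12 SF3b and U2 particle proteins held 47 and 446 counts, a ratio of 1.03 (0.743 to 1.39). Of these 3 were tested and none passed, SF3B2 at 0.35 ± 0.49 and SF3B3 at 0.18 ± 0.52.

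Relatives of the listed genes, from the same families and complexes and with their introns not considered, served as a further comparison. Summed over 79 genes, their IP share was 0.871 times the input share (0.767 to 0.986), and the interval overlaps that of the 38 genes. Of 20 tested, none passed with edgeR, and 3 had an unadjusted p under 0.05. DESeq2 gave an adjusted p to 9 of the 20 and called none of the 9, with 2 of the 20 at an unadjusted p under 0.05. The median log2 fold change was -0.09. INTS11, the endonuclease of the Integrator complex, had 23 and 6 IP counts against 52 and 102 and came closest, as seen from the values (1.09 ± 0.33 SE, edgeR adjusted p = 0.0532). INTS1 and DIAPH1, the relatives with the most input counts at 400 and 244, had adjusted p of 0.267 and 0.408.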

How the data were processed

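Gene counts deposited by the authors are whole reads per gene, not normalized, and a second table deposited by the authors gives FPKM of the same genes. Per the submitters' processing notes, HISAT2, HOMER and hg38 were used, in roles not stated. Not given in the sources used here are how reads were counted, by which strand rule, and what became of reads with several positions. Groups came from the sample titles; the cell line entries differ in their last digit, and all titles give MDA-MB-231. The design text calls replicates biological.

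IP and input were compared with edgeR 4.0.16 (R 4.3.3): default expression filter, TMM, group as the one term, Benjamini-Hochberg adjustment at 0.05 over all 3668 tested genes. A gene could pass the filter through either group. Normalised levels are CPM after TMM, mean ± SD over 2 libraries. The SE is the log2 fold change over the square root of F. DESeq2 1.42.0 and limma 3.58.1 were alternatives. Shares have Wilson and count ratios exact intervals at 95%, which cover counting error only. A count of 0 allowed 3 counts. The fit was tested on simulated counts with a common dispersion for all genes and libraries. That test does not speak to noise that differs between genes or groups. No test was run over the list as a whole.

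The list, its grouping by role and the other gene lists were chosen with earlier results of these data known. Named in full were tested genes with at least 50 input counts, any gene past the threshold and the 4 highest and 4 lowest tested; in other lists, those past the threshold and the 2 with the most input counts. Values of LZTR1, of untested listed genes, of INTS11 and of cell markers were added outside this rule, with values seen. Coordinates are from RefSeq (GRCh38.p14), in which all 38 symbols matched. No genome was used, so intron sequences are not shown.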

Additional observations from a re-analysis of the deposited data

How the results depend on the processing

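The count of listed genes called was 0 higher in every setting run on all libraries, and 0 lower in most. The exceptions were 7 lower with the FPKM totals, 9 and 5 with limma on log2(FPKM + 1) and log2(FPKM + 0.1), and 1 with TMM factors computed before the filter. The last setting was chosen after seeing the data. In these settings 57.2%, 69.5%, 50.8% and 6.65% of all tested genes were called lower. Over all genes, higher and lower calls were 60 and 90 with library totals, 17 and 2098 with totals taken from the FPKM table (the FPKM totals), 50 and 163 without a filter, 35 and 3 with DESeq2 (no adjusted p for 1849 genes, 9 of them listed), 25 and 2548 or 25 and 1865 with limma, and 47 and 244 with TMM before the filter. Leaving out 1 library gave 26 to 94 higher and 5 to 70 lower. With the replicate number as a block 68 genes were higher and 22 lower, and 0 listed genes. The numbers are not stated to pair libraries. Deviations of same-numbered libraries correlated at 0.000443 over 3668 genes. With 2 libraries per group and few IP counts per gene, that correlation cannot decide on pairing. The minor spliceosome RNAs and proteins and the SF3b and U2 particle proteins were counted together, with 8 tested in the main fit. This set had 1 higher call, not 2, with the FPKM totals, without a filter, with DESeq2, with limma and with TMM before the filter. Both limma fits called 2 of the set lower. Relatives were called lower in 11 cases with the FPKM totals and in 13 and 9 with limma, and higher in 1 case with protein-coding totals, with at least 10 counts in both inputs, and in 0 to 1 without single libraries. The median of listed genes was -1.38 with the FPKM totals, -0.48 without a filter (38 genes), -0.91 and -1.46 with limma, -0.29 with TMM before the filter, and -0.48 to 0.37 without single libraries. In the same order, the median of all tested genes was -1.65, -1.23, -1.05 and -1.66, -0.53, and -0.34 to 0.048. The summed ratio was 1.14 with protein-coding totals and 0.358 with the FPKM totals.

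Of 165 values of the 15 tested genes in other settings, 35 changed sign. Of the 165, 22 were called, all of them lower, and 2 of these 22 were of genes above 0 with TMM, E2F1 and MAPK12 with limma on log2(FPKM + 1) (limma adjusted p = 0.0477 and 0.0290). With the FPKM totals, E2F1, E2F4, STK11, MAPK12, ARAF, SLC12A4, TMEM161A and DERL1 were at -0.99, -0.82, -0.98, -1.30, -1.38, -1.30, -1.30 and -0.99. With limma on log2(FPKM + 1) the same genes were at -1.07, -0.57, -0.77, -1.01, -0.81, -0.94, -0.91 and -0.45, and with log2(FPKM + 0.1) at -1.27, -0.78, -0.95, -1.86, -1.15, -1.25, -1.23 and -0.90. MAPK12, ARAF, SLC12A4 and TMEM161A were at -0.13, -0.29, -0.19 and -0.21 both without a filter and with TMM before it. ARAF was at -0.032 with library totals, and MAPK13 at 0.013 with DESeq2 and 0.14 with the replicate block. Without single libraries the ranges were E2F1 -0.49 to 0.87, XPO5 -7.43 to 0.043, MAPK12 -2.09 to 0.73, ARAF -0.057 to 0.22, SLC12A4 -0.068 to 0.52, TMEM161A -0.46 to 0.81, HPS1 -1.73 to 0.69, LZTR1 -6.93 to 0.12 and, with no change of sign, MAPK14 -1.56 to -0.43. The lowest values of XPO5 and LZTR1 are fits with 0 IP counts. The cause of these changes was not tested beyond the shift of the median with each scale. Depth limits all values: 32 of the 38 genes had fewer than 10 IP counts, as did 12095 of the 13439 other protein-coding genes.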
